A study of Mus musculus with 4 samples.

Results

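The receptor tyrosine kinases examined here are encoded by 10 genes studied in melanoma: Met, Axl, Tyro3, Kit, Erbb2, Erbb3, Igf1r, Insr, Fgfr1 and Ddr1. They were chosen by name, and all 10 have a row among the 24421 gene symbols of the count matrix. Transcripts were counted at their 3′ ends by bulk MARS-seq, which primes at the poly(A) tail and tags molecules with unique molecular identifiers. The cells were B16F10, an established mouse melanoma line of C57BL/6 origin, transduced with lentivirus and selected with puromycin. In the shControl group (2 libraries) the cells carried a control construct, which the labels call a control shRNA and the methods list as an empty vector. In the shLmna group (2 libraries) they carried an shRNA that targets Lmna, which encodes the nuclear lamins A and C. An effect of expressing any hairpin therefore cannot be told apart from that of lamin A/C loss. The same holds for an off-target effect of this hairpin and for a difference between the selected cell populations. Separate cultures within a group are not stated, so p-values measure the spread between these libraries, which may be technical.

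A receptor tyrosine kinase binds a ligand outside the cell, pairs with another receptor molecule and phosphorylates tyrosines on its cytoplasmic tail. Adaptor proteins dock there and pass the signal to the RAS and PI3K pathways, while ubiquitin ligases, phosphatases and endosomal sorting end it. In the melanocyte lineage KIT is needed for the migration and survival of precursor cells, MET responds to hepatocyte growth factor made by neighbouring cells, and AXL is known for marking poorly pigmented, invasive melanoma states.

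Of the 10 receptors, 6 had enough counts to be tested (Met, Ddr1, Tyro3, Axl, Erbb2 and Igf1r), and 1 of them passed. Met rose 1.74-fold in shLmna cells. The other 5 did not pass, Kit and Insr were read too rarely to be tested, and Erbb3 and Fgfr1 were practically unread. The passing share of 1 in 6 stands beside 15.2% of all 9150 tested genes that had an adjusted p under 0.05 in either direction, so it is near the background and is not a result about receptors as a group. In this fit none of the 6 met the limits of the study, which also ask for an absolute log2 fold change over 1. Of all tested genes 7.64% met them (1.76% as higher and 5.88% as lower). After a GC correction Met did meet them (log2 fold change 1.07). In bulk samples, fewer cells expressing a gene and less of its RNA per cell cannot be told apart.

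Library totals ranged from 2494880 to 3808843 counts, with shLmna 1 the shallowest. Lmna, the targeted gene, had 2826 and 2684 counts in shControl against 331 and 480 in shLmna, with -2.61 as its log2 fold change (SE 0.142, edgeR quasi-likelihood adjusted p 7.93e-06). Of 7 melanocyte lineage markers, 6 were tested, of which Sox10 passed as lower and Pmel and Mlana as higher. This stands beside 15.2% of all tested genes that passed in either direction. Mitf, Tyrp1 and Dct did not pass, with log2 fold changes of -0.37, -0.14 and -0.02. Levels are in CPM, counts per 10⁶ after TMM scaling of the library total. The 7 markers summed to 20117 to 20891 CPM in shControl and 21156 to 24602 in shLmna. The part of these shifts in the receptor results was not tested. Tyr, the marker that was not tested, had 1 and 1 counts in shControl against 3 and 7 in shLmna. Whether its transcript end lies outside the counted window was not examined. Markers of fibroblasts, endothelium, leukocytes and epithelium summed to at most 7.50 CPM per list and library. Fibroblast sums were 7.12 and 7.50 CPM in shControl against 2.37 and 4.90 in shLmna. Endothelial sums were 3.10 and 3.21 against 0 and 1.36, and epithelial sums 5.89 and 2.95 against 0.396 and 1.63. Leukocyte sums overlapped. Krt8 had 16 and 9 counts in shControl against 0 and 1 in shLmna. Ptprc, Cd3e, Cdh5, Kdr, Epcam, Dcn and Lum were at 0 in all libraries. These single markers were named after their values were seen.

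Met, the receptor of hepatocyte growth factor, was the most abundant receptor of the set. The gene lies on chromosome 6 (17463800 to 17573980, plus strand, GRCm38). The last 1000 bases of the annotated transcript used here fall within the last of 22 exons. They have a GC content of 38.0%, and 0% of their 31-base stretches are shared with another gene. Whether the counted window covers the same bases was not tested. The start of the gene is shown because Met was the one receptor that passed the test, beside that of Axl, which had the most negative difference among the tested receptors. The windows are RefSeq promoters (GRCm38.p6), 250 bases before to 50 bases after an annotated start, for Met at chr6:17463707-17464006 on the plus strand and for Axl at chr7:25788684-25788983 on the minus strand. Capitals mark GC boxes (GGGCGG), E-boxes (CACGTG) and AP-1 sites (TGACTCA), each searched on both strands and in capitals also where it stands reversed.
Met: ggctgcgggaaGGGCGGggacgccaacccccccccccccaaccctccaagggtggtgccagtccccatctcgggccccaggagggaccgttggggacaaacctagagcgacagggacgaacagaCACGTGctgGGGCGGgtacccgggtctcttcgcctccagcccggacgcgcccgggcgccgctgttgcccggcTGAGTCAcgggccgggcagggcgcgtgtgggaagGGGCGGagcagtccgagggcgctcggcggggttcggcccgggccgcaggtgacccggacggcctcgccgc
Axl: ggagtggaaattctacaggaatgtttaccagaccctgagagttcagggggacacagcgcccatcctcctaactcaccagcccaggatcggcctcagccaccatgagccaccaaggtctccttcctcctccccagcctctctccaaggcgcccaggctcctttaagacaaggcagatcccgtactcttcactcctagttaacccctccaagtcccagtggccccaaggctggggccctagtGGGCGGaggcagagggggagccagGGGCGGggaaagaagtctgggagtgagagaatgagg

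The Met window held 3 GC boxes, 1 E-box whose first base stands at position -126 and 1 AP-1 site at -54, where 0 is the first base after the start. The Axl window held 2 GC boxes and no match to the other motifs. Of 32851 promoter windows of this length, 7.15% held the E-box, 35.7% a GC box and 5.20% the AP-1 site. Promoter windows were found for 7 of the 10 receptors, 11 in all because some genes have several starts. The E-box was in 1 of these 11, that of Met, while 9 held a GC box and 2 an AP-1 site. An E-box variant (CATGTG) and a TATA box (TATAAA) were also searched. They were in 0 of the 11, against 14.2% and 13.6% of all windows. The Kit windows begin at 75574737 and 75574741 and hold the same GC box, so the 11 windows are not independent. GC content was 75.7% in the Met window and 60.3% in the Axl window, with 34 and 6 CpG dinucleotides. These matches describe letters in a window and are not shown to be bound.

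Met was read with 911 and 1673 counts in shControl against 1649 and 2261 in shLmna. On the CPM scale, which corrects for depth, shControl stood at 282.2 and 447.9 and shLmna at 652.2 and 616.0. Both shLmna libraries thus stood above both shControl libraries, as in 60.1% of all tested genes, where the groups did not overlap in one direction or the other. The lower shLmna library exceeded the higher shControl library by a factor of 1.38, while the shControl libraries differed from each other by a factor of 1.59 and the shLmna libraries by 1.06. Mean levels were 365 ± 117.2 CPM in shControl and 634.1 ± 25.6 CPM in shLmna (SD, n = 2). The log2 fold change was 0.80 (SE 0.190, 95% interval 0.37 to 1.22) and passed the edgeR quasi-likelihood test (adjusted p 0.0207 over all tested genes). In linear terms the interval runs from 1.29-fold to 2.33-fold.

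Met was higher in shLmna without any one of the 4 libraries, though the size of the difference and the call varied. A group left with 1 library has no spread of its own, so it was assumed to vary like the other group, with the estimate moderated across genes. Leaving out shControl 1 gave a log2 fold change of 0.50 and leaving out shControl 2 gave 1.16, with edgeR adjusted p of 0.00699 and 6.00e-07. Without shLmna 1 it was 0.76 and without shLmna 2 it was 0.85, close to the value from all 4 libraries, and the edgeR adjusted p was 0.124 and 0.122. In these settings the spread came from the shControl pair, and the number of all genes past the test was 555 and 503 in place of 1392. A ratio within each library, which no library-wide scaling can change, showed the same order. It reuses the same Met counts and so is not a separate check. There were 2.92 and 3.85 Met counts for each count of Ddr1 in shControl, against 5.85 and 5.21 in shLmna.

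**Figure D1:**
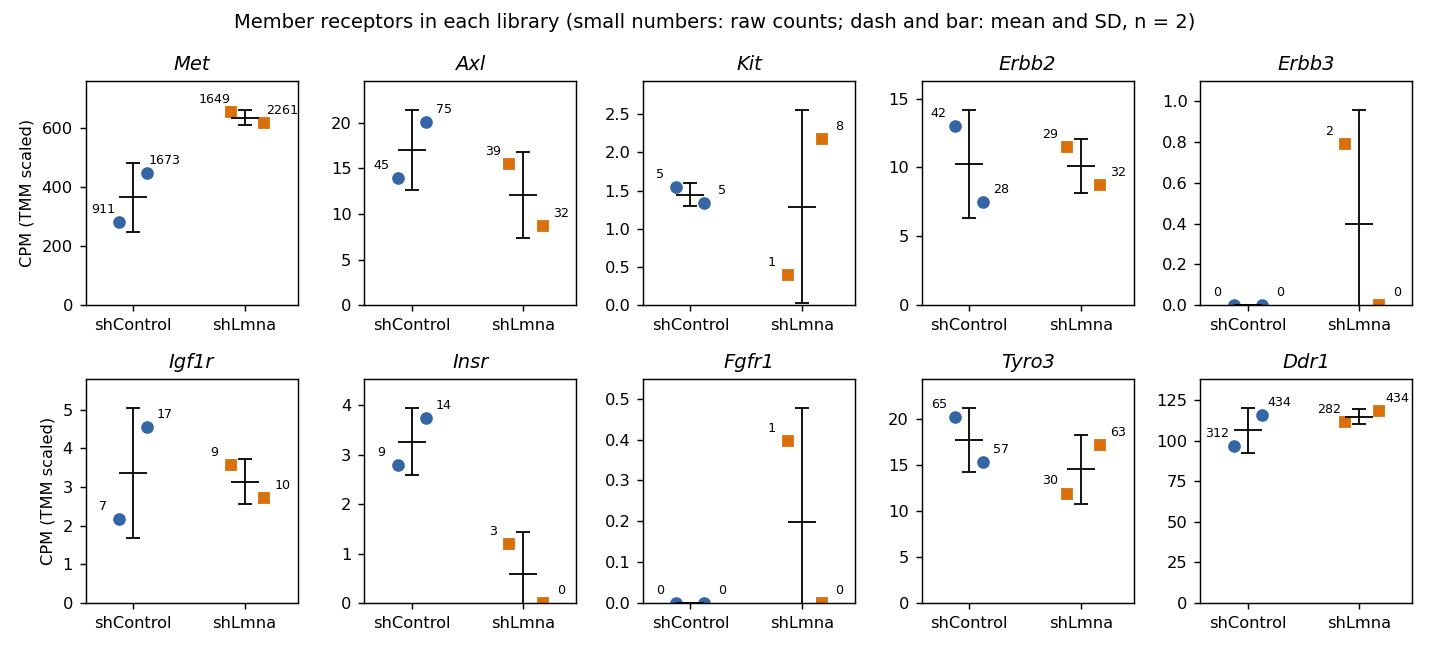
Level of each receptor in CPM (y axis, linear and starting at 0, its range differing between panels) in the 2 shControl libraries (circles) and the 2 shLmna libraries (squares), with raw counts as small numbers and mean ± SD (n = 2) as dash and bar. Met is higher in both shLmna libraries than in both shControl libraries, and Insr is lower in both. Of all tested genes, 60.1% did not overlap in one direction or the other. In the other panels with more than 2 counts the groups overlap. Error bars that would pass below 0 are cut there.

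Ddr1 encodes a receptor for collagen and was the next most abundant member. Its gene lies on chromosome 17 (35681567 to 35704621, minus strand, GRCm38), with a GC content of 56.3% in the last 1000 bases of the transcript used here. It had 312 and 434 counts in shControl against 282 and 434 in shLmna, which gave 96.6 and 116.2 CPM against 111.5 and 118.2 CPM. The groups overlapped. Its log2 fold change was 0.11 (SE 0.138, edgeR adjusted p 0.639). The 95% interval of -0.20 to 0.42 leaves room for a change from 0.872-fold to 1.34-fold.

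Tyro3 and Axl encode receptors of the TAM family, which bind GAS6 and protein S and take part in the clearance of dying cells. Tyro3 (chromosome 2, 119797733 to 119818104) had 65 and 57 counts in shControl against 30 and 63 in shLmna, or 20.1 and 15.3 CPM against 11.9 and 17.2 CPM. The libraries of the groups overlapped, with shLmna 1 the lowest. The log2 fold change was -0.26 (SE 0.272, 95% interval -0.87 to 0.35, edgeR adjusted p 0.570). Axl (chromosome 7, 25757273 to 25788705) had 45 and 75 counts in shControl against 39 and 32 in shLmna, or 13.9 and 20.1 CPM against 15.4 and 8.72 CPM. Its groups overlapped as well, since shLmna 1 exceeded shControl 1. The log2 fold change was -0.54 (SE 0.322, 95% interval -1.26 to 0.18, edgeR adjusted p 0.301), an interval that runs from 0.418-fold to 1.14-fold. It was -0.96 without shLmna 1 and -0.13 without shLmna 2. Tyro3 counts per Axl count were 1.44 and 0.760 in shControl against 0.769 and 1.97 in shLmna, so no order of the groups was seen within the family.

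Erbb2 and Erbb3 encode members of the epidermal growth factor receptor family. ERBB2 has no known ligand of its own, and ERBB3 binds neuregulins but has little kinase activity, so the proteins signal as a pair. Erbb2 (chromosome 11, 98412470 to 98437716) had 42 and 28 counts in shControl against 29 and 32 in shLmna, or 13.0 and 7.50 CPM against 11.5 and 8.72 CPM. Both shLmna values lay between the shControl values. The log2 fold change was -0.03 (SE 0.341, 95% interval -0.79 to 0.74, edgeR adjusted p 0.971), and its sign turned under 9 of the 14 alternative settings. Its 3′ end overlaps Mien1 on the opposite strand in the annotation, and whether the counting used strand is not given in the sources used here. Erbb3 (chromosome 10, 128567523 to 128589652) was unread apart from 2 counts in shLmna 1. Its counts of 0 in both shControl libraries allow up to 0.929 and 0.803 CPM (3 counts each, counting error only).

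Igf1r and Insr encode the receptors of insulin-like growth factor 1 and of insulin, which are close relatives. Igf1r (chromosome 7, 67952827 to 68233668) had 7 and 17 counts in shControl against 9 and 10 in shLmna, or 2.17 and 4.55 CPM against 3.56 and 2.72 CPM. Again the shLmna values lay between those of shControl. The log2 fold change was -0.14 (SE 0.520, 95% interval -1.31 to 1.02, edgeR adjusted p 0.889). That interval leaves room for a change from 0.404-fold to 2.03-fold. The log2 fold change was -0.55 without shControl 1 and 0.50 without shControl 2.

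Insr (chromosome 8, 3122061 to 3279617) had 9 and 14 counts in shControl against 3 and 0 in shLmna, or 2.79 and 3.75 CPM against 1.19 and 0 CPM. Both shLmna libraries lay below both shControl libraries, as in 30.6% of all tested genes. Insr fell short of the filter on low counts and so was not tested in the fit reported here. The summed counts, 23 against 3, gave a ratio of 0.147 of shLmna to shControl, with an exact 95% interval of 0.0282 to 0.485 that covers counting error only. With no filter on low counts the edgeR adjusted p of Insr was 0.0190, and with DESeq2 it was 0.446. With limma on the batch-corrected values Insr had an adjusted p of 0.0488, from a fit that did not allow for that correction. It entered the filtered fit when a library was left out, with an edgeR adjusted p of 0.0391 without shControl 1, 0.0662 without shLmna 1 and 0.442 without shLmna 2. The annotated gene reaches further downstream than the transcript used here for base composition, whose 3′ end lies at 3150922. GC content of that transcript's last 1000 bases was 36.6%, the lowest of the 10 receptors, and the median was 39.9% in the genes that passed as lower and 46.9% in all tested genes. The part of base composition in the low Insr counts was not tested.

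Kit encodes the receptor of stem cell factor (chromosome 5, 75574916 to 75656722). It had 5 and 5 counts in shControl against 1 and 8 in shLmna, or 1.55 and 1.34 CPM against 0.396 and 2.18 CPM. The shLmna libraries lay on either side of shControl. The ratio of summed counts was 1.01 with an exact 95% interval of 0.364 to 2.77, from counting error only. Fgfr1, a receptor of fibroblast growth factors (chromosome 8, 25513654 to 25575718), was unread apart from 1 count in shLmna 1. For Kit, Erbb3 and Fgfr1 a difference between the groups was not detectable at this depth. Reads were counted over the last 1000 bases of an annotated gene and the 100 bases after it, so a low count can also come from a transcript end outside that window, which was not tested.

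**Figure D2:**
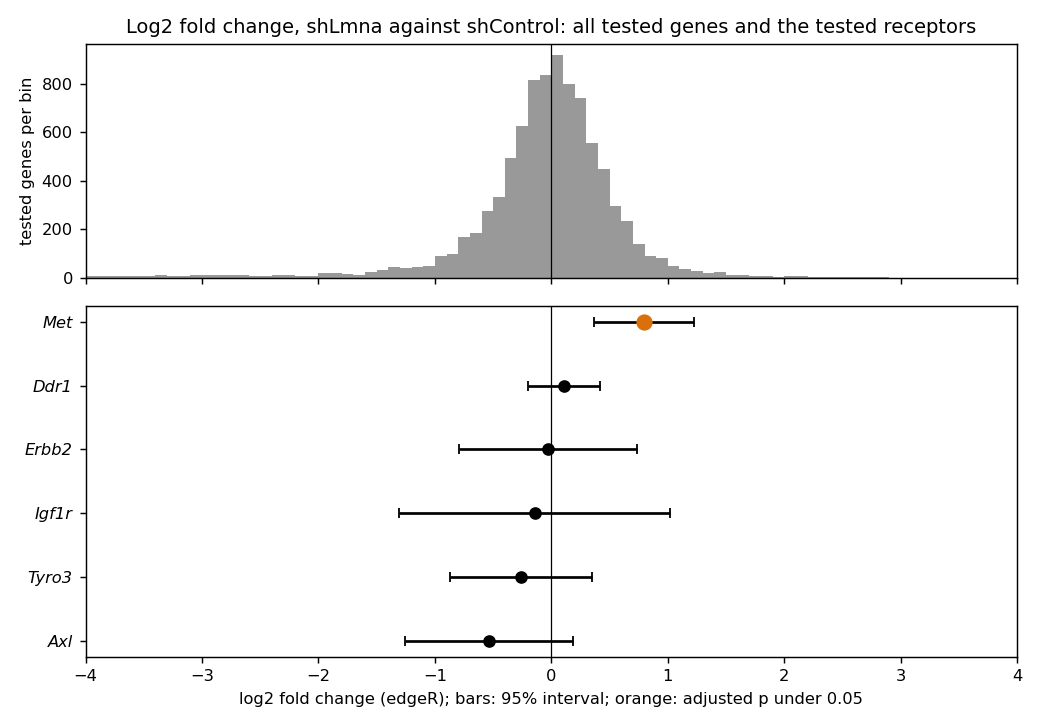
Upper panel, the number of tested genes per bin of log2 fold change (147 of 9150 genes lie beyond the limits of 4 in either direction and are not drawn). Lower panel, the log2 fold change of the 6 tested receptors with its 95% interval on the same axis, where the interval of Met alone leaves out 0.

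The counted window had the same length for each gene, so levels in CPM were set side by side without a length correction. In shControl the order was Met, Ddr1, Tyro3, Axl, Erbb2, Igf1r, Insr, Kit, then Erbb3 and Fgfr1 at 0. Tyro3 and Axl overlapped, with 17.7 ± 3.45 and 17.0 ± 4.34 CPM (SD, n = 2), as did Igf1r and Insr with 3.36 ± 1.69 and 3.27 ± 0.679 CPM. In shLmna the first 6 places were the same, at 634.1, 114.9, 14.5, 12.1, 10.1 and 3.14 CPM, and Kit stood above Insr. There Tyro3 overlapped Axl and Axl overlapped Erbb2, and the 4 receptors from Kit down overlapped each with the next. Met, and after it Ddr1, stood apart from all others in both groups.

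**Figure D3:**
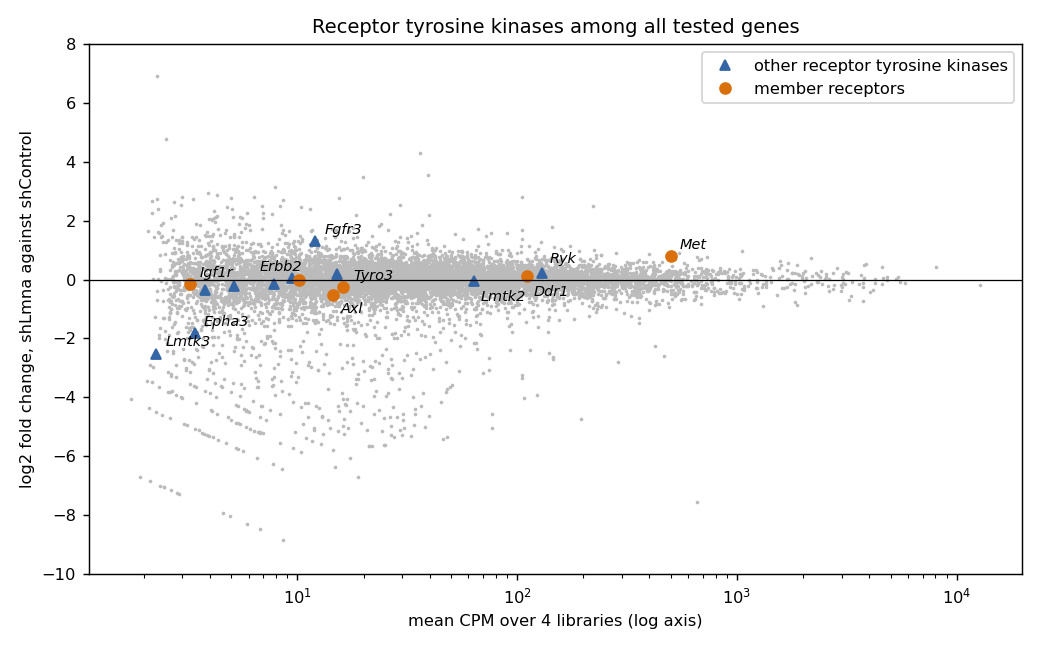
Log2 fold change, shLmna against shControl, against mean CPM over the 4 libraries (log axis) for all tested genes (grey), the 6 tested receptors of the set (circles) and 10 other tested receptor tyrosine kinases (triangles). Met lies above the bulk of genes at its level, while Ddr1, Tyro3, Erbb2, Igf1r and Axl lie within it; Fgfr3 and Lmtk3 are the other receptors past the test.

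The remaining receptor tyrosine kinases were examined to set the 10 in context. Of 48 listed, 22 had no count in any library, 16 were below the filter and 10 were tested, of which 1 passed as higher and 1 as lower. Fgfr3, another receptor of fibroblast growth factors, had 20 and 28 counts in shControl against 46 and 60 in shLmna, or 6.85 ± 0.920 and 17.3 ± 1.31 CPM (SD, n = 2). It rose (log2 fold change 1.32, SE 0.273, edgeR adjusted p 0.0104) and met all limits of the study. The fold change was of like size without shLmna 1 (log2 1.25), without shLmna 2 (1.42) and with DESeq2 (1.33), where the adjusted p was 0.0882, 0.0769 and 0.121. Lmtk3, which encodes a kinase of the lemur family, had 13 and 14 counts in shControl against 2 and 2 in shLmna (edgeR adjusted p 0.0258). Its ratio of summed counts was 0.166, with an exact 95% interval of 0.0423 to 0.478 from counting error only. The edgeR adjusted p of Lmtk3 was over 0.05 without any one of the 4 libraries, from 0.0519 to 0.248, and was 0.303 with DESeq2.

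Of the 5 most abundant receptors of that list, Fgfr3 passed and the other 4 did not. Ryk, a receptor of WNT proteins with an impaired kinase, stood at 120.6 ± 4.05 and 139.4 ± 5.88 CPM (log2 fold change 0.21, edgeR adjusted p 0.285), and Lmtk2 at 64.7 ± 4.83 and 62.4 ± 5.42 CPM (-0.05, edgeR adjusted p 0.869). Ddr2, the relative of Ddr1, had 24 and 77 counts in shControl against 46 and 53 in shLmna (log2 fold change 0.18, edgeR adjusted p 0.804), and it was -0.35 without shControl 1 and 1.11 without shControl 2. The latter had an edgeR adjusted p of 0.0404, but it set a single shControl library against shLmna, so the gap between the shControl libraries did not enter it. Ephb4, a receptor of ephrins, had a log2 fold change of 0.04. Egfr and Erbb4, the other members of the family of Erbb2, had no count, and they were picked for mention after their values were seen.

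Ligands of the 10 receptors were sparsely read. Of 23 listed, 9 had no count, among them Hgf, the ligand of MET, and 9 were below the filter, among them Gas6 (1 count in shControl 2) and Kitl (1 count in shControl 2 and 2 in shLmna 2), all named after their values were seen. Of the 5 tested, 0 passed the edgeR adjusted test, 3 had an unadjusted p under 0.05 (as did 2750 of all 9150 tested genes), 0 passed with DESeq2 and 4 with limma on the batch-corrected values. These 3, named after their values were seen, were Pros1, which encodes protein S (log2 fold change 0.92), and the collagen genes Col1a2 (-1.23) and Col4a1 (-0.70), which encode chains of possible DDR1 ligands. After a GC correction Pros1 passed.

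Co-receptors, receptor proteases and binding proteins had 11 tested genes of 20 listed, with 2 lower and 1 higher. Gpc1, a heparan sulphate proteoglycan that binds growth factors, rose from 214.4 ± 8.25 to 309.1 ± 9.80 CPM (SD, n = 2) (log2 fold change 0.53, edgeR adjusted p 0.0161, or 0.122 without shLmna 1 and 0.0986 without shLmna 2). Igfbp4, which encodes a binding protein of insulin-like growth factors, fell from 420.6 ± 156.8 to 190.5 ± 2.41 CPM (log2 fold change -1.14, edgeR adjusted p 0.00699, or 0.0550 without shLmna 1 and 0.0986 without shLmna 2). It was -1.48 without shControl 1 and -0.70 without shControl 2, and 19.5% of the 31-base stretches at its transcript end are shared with other genes, so its counts are uncertain. Adam10, a protease that sheds receptor ectodomains, fell from 23.9 ± 5.26 to 9.71 ± 0.249 CPM (log2 fold change -1.30, edgeR adjusted p 0.00929, or 0.0530 without shLmna 1, 0.0885 without shLmna 2 and 0.0672 with DESeq2). Its 3′ end has a GC content of 34.7%, and after the GC correction the log2 fold change was -0.47 with an edgeR adjusted p of 0.222. The list median was 0.07, against -0.0011 over all tested genes.

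Adaptors and proximal effectors had 17 tested genes of 24 listed, of which 3 fell and 0 rose. Nck1, an SH2 and SH3 adaptor that links receptors to actin, had 74 and 109 counts in shControl against 12 and 39 in shLmna (log2 fold change -1.70, SE 0.332, edgeR adjusted p 0.00813). It was -2.44 without shLmna 2 and -1.29 without shLmna 1, and passed each time. Src, a cytoplasmic tyrosine kinase, fell from 97.9 ± 13.1 to 62.4 ± 3.48 CPM (SD, n = 2) (log2 fold change -0.65, edgeR adjusted p 0.0174, or 0.0926 without shLmna 1, 0.180 without shLmna 2 and 0.0642 with DESeq2). Pik3r2, a regulatory subunit of PI3K, was just past the test (log2 fold change -0.48, edgeR adjusted p 0.0495). That call ended without shControl 2 (0.199), shLmna 1 (0.249) or shLmna 2 (0.227), under 2 of the 3 other scalings, with DESeq2 and with the GC correction. The list median was -0.18. Crk and Vav2 had no count in any library and were named after this was seen. Whether their transcript ends lie outside the counted window was not tested.

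Among negative regulators 16 of 30 listed genes were tested, and 1 fell. Stam, a subunit of the endosomal sorting machinery that carries ubiquitylated receptors towards degradation, had 35 and 48 counts in shControl against 10 and 9 in shLmna (log2 fold change -1.92, SE 0.371, edgeR adjusted p 0.00761). The edgeR adjusted p was 0.107 without shLmna 2, and with DESeq2 it was 0.0785. The list median was 0.02. The counts passing in these lists stand beside a background of 9.74% lower and 5.48% higher among all tested genes. With so few tested genes per list, none is called particular to the pathway. Among these genes and the other receptors, Lmtk3, Igfbp4, Adam10, Nck1 and Stam met all limits of the study as lower, and Fgfr3 as higher. Of all tested genes 5.88% did so as lower and 1.76% as higher.

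**Figure D4:**
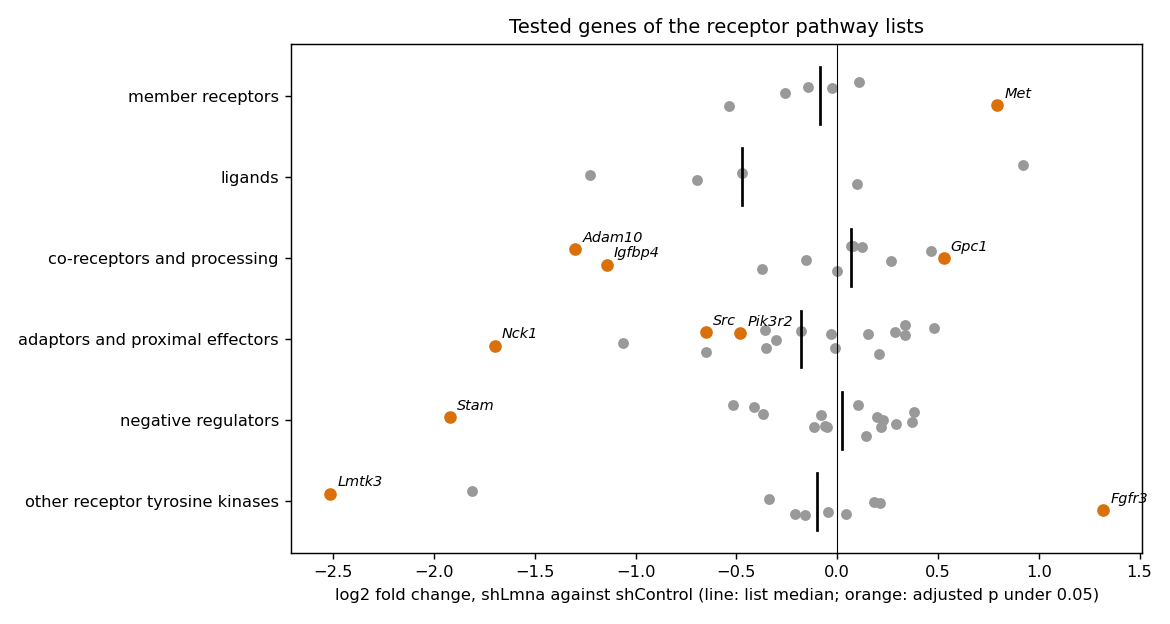
Log2 fold change, shLmna against shControl, of each tested gene in the receptor set and the 5 related lists, with the list median as a black line and genes past the adjusted test in orange and named. Met and Gpc1 are on the higher side with Fgfr3, and Nck1, Src, Pik3r2, Stam, Adam10, Igfbp4 and Lmtk3 are on the lower side; no ligand passed.

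**Figure D5:**
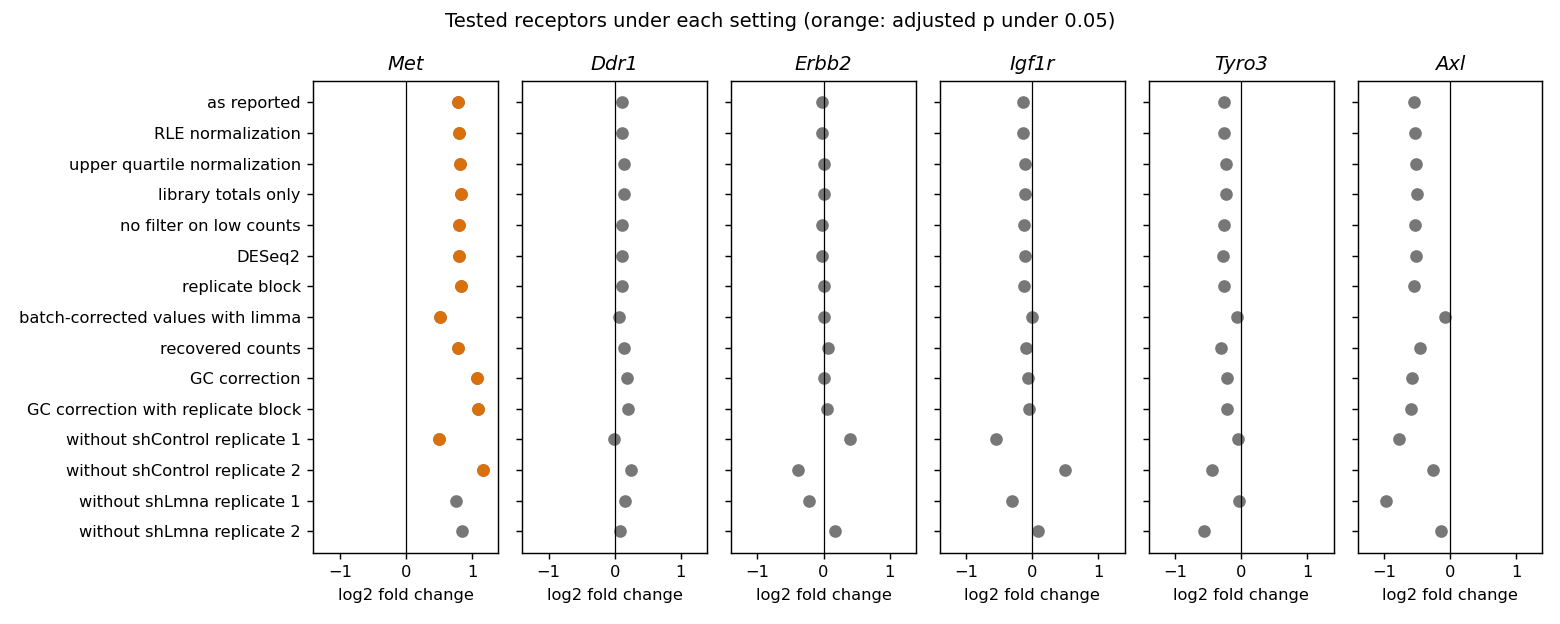
Log2 fold change of the 6 tested receptors under the reported setting and 14 alternatives, with orange for an adjusted p under 0.05. Met is above 0 throughout and past the test in all but the settings without shLmna 1 or without shLmna 2; the sign of Erbb2, Igf1r and Ddr1 turns when single libraries are left out.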

How the data were processed

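RNA of 4 B16F10 libraries (2 shControl, 2 shLmna) was profiled by bulk MARS-seq. Per the methods of the study and the submitters' processing notes, the authors trimmed reads with Cutadapt, aligned them to mm10 with STAR 2.4.2a and counted them with HTSeq over the last 1000 bases of RefSeq genes and 100 bases downstream, with duplicates of molecular identifiers marked. The matrix of raw counts that the authors deposited was the input of the main test. Whether it precedes the collapse of duplicates is not stated. A second deposited table holds a signal per gene, the count divided by 1 DESeq2 size factor per library. In all 4 libraries 100% of its values were multiples of a single step (tolerance 0.01), and the counts recovered from it were an alternative. Over the genes in both, the matrix held from 1.078 to 1.089 times these recovered counts per library. Another deposited table holds normalized log2 values corrected by the authors with ComBat for batches that are not named. The limma fit of these values had group as the one term, so its p-values did not allow for that correction. Its log2 fold changes for Lmna and Nck1 were smaller (-1.54 and -0.37, against -2.61 and -1.70 in the main test). P-values, adjusted p-values and calls of the authors were not used.

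Counts were tested with the edgeR 4.0.16 quasi-likelihood F test (R 4.3.3, two-sided, TMM, filterByExpr, group as the one term), adjusted over 9150 genes by the Benjamini-Hochberg method. Passing means an adjusted p under 0.05. The limits of the study add an absolute log2 fold change over 1 and a mean normalized count over 5. SE and 95% intervals come from the F statistic. Alternatives used limma 3.58.1 and DESeq2 1.42.0, other scalings, no filter, a replicate block, a GC correction (a loess curve of log2 CPM per library on GC content of the last 1000 bases of a GENCODE M21 transcript, known for 8808 tested genes) and leaving out each library. The fit was tested on simulated data. Named genes are the 10 receptors, Lmna, genes of the related lists past the adjusted test (at most 8 per list) and the 5 most abundant other receptors. No gene was named for likeness of pattern. Members and lists were chosen with earlier results of these data known. Intervals of counts cover counting error only and treat each count as a separate molecule. They would be too narrow if the matrix holds duplicates.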

Additional observations from a re-analysis of the deposited data

How the results depend on the processing

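All genes past the test numbered 1392 (64.0% lower). They numbered 807 with DESeq2 and 3769 with limma on the batch-corrected values. After the GC correction 47.5% of the passing genes were lower, and 45.8% with the replicate block added. Leaving out 1 library gave between 503 (without shLmna 2) and 2104 (without shControl 1). The count of member receptors was 1 and became 2, by adding Insr, with no filter or with limma, and ranged from 0 to 2 when a library was left out. Ligands went from 0 to 4 with limma and to 1 with either GC correction. Co-receptors and processing genes (3) ranged from 0 to 3 without 1 library. Adaptors (3) numbered 7 with no filter, 1 with DESeq2 and 10 with limma, and 1 to 7 without 1 library. Negative regulators (1) numbered 2 with no filter, with the replicate block and with either GC correction, 0 with DESeq2 and 4 with limma, and 0 to 2 without 1 library. Other receptors (2) numbered 0 with DESeq2 and 4 with limma, and 0 to 2 without 1 library.

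Met kept its direction and passed under all 10 alternatives that use 4 libraries, with log2 fold changes from 0.51 to 1.09, and Lmna did so from -2.61 to -1.54. Met met the limits of the study with the GC correction (1.07) and with the replicate block added to it (1.09), but not in the main test. Erbb2 turned to 0.0025 with upper quartile scaling, 0.0041 with library totals, 0.011 with the replicate block, 0.013 with limma, 0.063 with recovered counts, 0.0078 with the GC correction and 0.046 with both. Without 1 library it ranged from -0.39 to 0.41, Igf1r from -0.55 to 0.50, Ddr1 from -0.012 to 0.25, Lmtk2 from -0.13 to 0.039, Ddr2 from -0.35 to 1.11 and Ephb4 from -0.27 to 0.40. The causes were not tested. No pairing by the replicate numbers in the titles was seen (correlation of deviations across genes 0.013), which does not show that the libraries are unpaired. With the replicate block 2072 genes passed, with Met at 0.83. At this depth Kit, Insr, Erbb3 and Fgfr1 fell below the filter, and the intervals of Igf1r and Erbb2 were wide.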
